A study of Homo sapiens with 6 samples.

Results

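Growth factor signals reach the nucleus through RAS, the RAF and MEK kinases and the ERK kinases, and active ERK switches on genes whose products restrain the same route. The genes described here are 10 such feedback inhibitors: DUSP1, DUSP4, DUSP5, DUSP6, DUSP7, SPRY1, SPRY2, SPRY4, SPRED1 and SPRED2. They were taken by name from the 56505 rows of a gene count table, in all 6 libraries. Dual-specificity phosphatases (DUSP) remove the activating phosphates from ERK and related kinases. Sprouty proteins (SPRY) act between growth factor receptors and RAS or RAF, and SPRED proteins bring the RAS inactivator neurofibromin to the membrane. Transcripts of many of these genes are used as readouts of ERK output in tumour cells.

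RNA came from a culture that the labels call MDA-MB-468, a basal-like, triple-negative human breast cancer line with amplified EGFR, grown in medium with serum and without further treatment. In 3 libraries the cells carried a short hairpin RNA against cytokeratin 5, the KRT5 product (shCK5-22 in the titles, shCK5 here). In the other 3 they carried a control hairpin (shControl). Only 1 knockdown hairpin was sequenced, and no label states that the replicates were grown apart. The p-values therefore rest on the variation among these libraries, part or all of which may be technical.

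Between 75460940 and 83594772 counts were assigned in shCK5 libraries and between 68810882 and 75529699 in shControl libraries. Levels are given as CPM, the counts scaled to a common library size, after TMM correction for library composition. KRT5 averaged 16.42 ± 0.845 CPM in shCK5 and 2044 ± 23.3 CPM in shControl (SD, n = 3 each). The groups differed beyond the target. RB1 and SMAD4, deleted in MDA-MB-468, averaged 101 and 16.86 CPM in shCK5, against 1.996 and 0.2346 CPM in shControl. All 5 epithelial markers examined (EPCAM, KRT8, KRT18, KRT19, CDH1) were detected in every library, with a summed level of 1350 to 1370 CPM in shCK5 and 4860 to 4960 CPM in shControl. The 5 fibroblast markers summed to 12.1 to 14.1 CPM in shCK5 and 13.1 to 13.8 CPM in shControl, the 4 endothelial markers to 5.81 to 6.74 CPM in shCK5 and 4.01 to 5.62 CPM in shControl, and the leukocyte markers to 0.734 to 1.03 CPM in shCK5 and 4.98 to 6.12 CPM in shControl. Single fibroblast and endothelial markers differed in both directions behind these sums. On the log2 scale, shCK5 over shControl, COL1A1 was at -0.56 and PDGFRB at 3.19. CDH5 and VWF were at -5.14 and -1.88, and PECAM1 and KDR at 0.95 and 0.88. DCN and CD3E were at 0 in shCK5, and LUM was at 0 in shControl. Their part in the results below was not tested. An effect of the knockdown and a difference in the cells that were sequenced cannot be told apart for any gene below. In RNA from whole cultures, fewer cells of a type and less RNA per cell cannot be told apart either.

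The feedback inhibitors were higher in shCK5. Of the 10 genes, 9 had counts and could be tested, with no group mean below 6.965 CPM. All 9 passed an adjusted p of 0.05 in edgeR's quasi-likelihood test, each higher in shCK5. Of all 19567 genes tested, 82.7% passed in either direction and 40.9% passed as higher. A rise of more than 2-fold was seen in 7 of the 9 (DUSP4, DUSP5, DUSP6, DUSP7, SPRY1, SPRY4 and SPRED1), against 19.6% of all genes. In all 9 every shCK5 library was above every shControl library, which held for 41.6% of all genes. Log2 fold changes, shCK5 over shControl, ran from 0.13 for SPRED2 to 3.33 for DUSP6, with a median of 1.86 over the 9 and of -0.0194 over all genes tested.

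**Figure D1:**
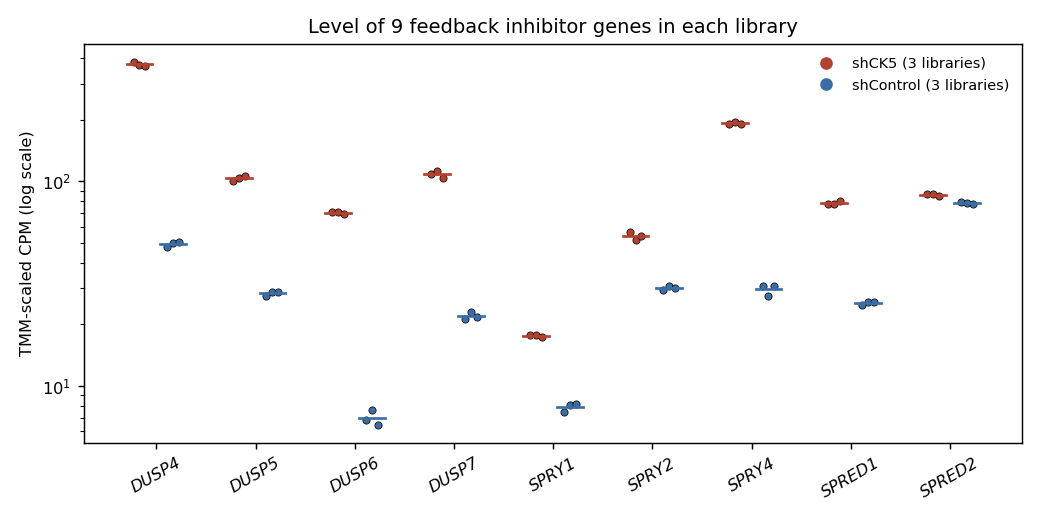
TMM-scaled CPM (log axis) of 9 feedback inhibitor genes in the 3 shCK5 libraries (red, left) and the 3 shControl libraries (blue, right); points are libraries and bars are group means. The groups are apart for every gene, widely for DUSP6 and DUSP4 and narrowly for SPRED2.

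**Figure D2:**
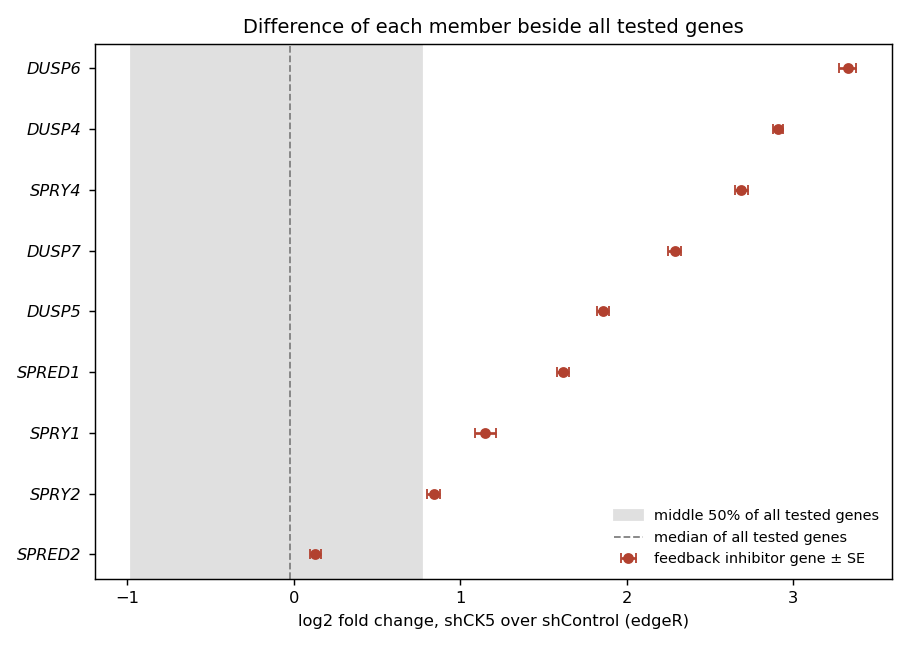
Log2 fold change of each gene, shCK5 over shControl, with the standard error of the fit; the grey band spans the middle 50% of all tested genes, from -0.98 to 0.77, and the dashed line is their median. The points of 8 genes lie above the band and that of SPRED2 lies within it.

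Upstream sequences are shown for DUSP6 and SPRY4, with log2 fold changes of 3.33 and 2.69, and for SPRED2, the lowest at 0.13, because the 9 genes were all higher in shCK5, and because ERK-responsive transcription factors of the AP-1, CREB, ETS and SRF classes bind short motifs. RefSeq windows (GRCh38.p14) from 250 bases before to 50 bases after a transcript start were used for 8 members, 12 windows in all; DUSP4 and DUSP5 are the other members. Those of DUSP6 (chr12:89352452-89352751, minus strand), SPRY4 (chr5:142324198-142324497, minus strand) and the second start of SPRED2 (chr2:65366729-65367028, minus strand) read as follows, 5′ to 3′, with matches to the AP-1 motif in capitals.
DUSP6: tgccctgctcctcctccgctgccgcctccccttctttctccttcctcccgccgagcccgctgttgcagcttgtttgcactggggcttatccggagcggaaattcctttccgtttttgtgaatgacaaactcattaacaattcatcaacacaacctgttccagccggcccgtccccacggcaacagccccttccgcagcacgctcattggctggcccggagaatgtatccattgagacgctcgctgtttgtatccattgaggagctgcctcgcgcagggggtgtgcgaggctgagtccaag
SPRY4: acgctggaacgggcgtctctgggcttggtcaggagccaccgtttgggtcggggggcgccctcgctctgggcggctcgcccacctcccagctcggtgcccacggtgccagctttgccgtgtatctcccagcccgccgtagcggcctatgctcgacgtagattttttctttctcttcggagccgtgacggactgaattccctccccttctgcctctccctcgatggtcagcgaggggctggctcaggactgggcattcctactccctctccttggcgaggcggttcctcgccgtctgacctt
SPRED2: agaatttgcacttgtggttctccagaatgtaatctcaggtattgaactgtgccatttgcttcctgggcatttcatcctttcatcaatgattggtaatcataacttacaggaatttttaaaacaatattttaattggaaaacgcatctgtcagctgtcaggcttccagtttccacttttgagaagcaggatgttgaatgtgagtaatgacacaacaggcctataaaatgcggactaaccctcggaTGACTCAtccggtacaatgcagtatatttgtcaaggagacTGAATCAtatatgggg

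The motifs searched on both strands were AP-1 (TGANTCA), the cyclic AMP response element (CRE, TGACGTCA), ETS (CCGGAAG) and the CArG box of the serum response element. No match to 1 motif overlapped a match to another in these windows. AP-1 matched in 1 of the 12 windows, the one of SPRED2 above, which holds TGACTCA starting 6 bases before the start and TGAATCA starting 34 bases after it; AP-1 matched in 7.71% of all 35116 RefSeq windows. CRE matched in 1 window, that of DUSP1 (1.85% of all windows), and ETS in 1, at the second start of SPRY1 (10.3%). The CArG box matched in none of the 12 (1.29% of all windows). For AP-1, 1 of 12 windows is near the share over all windows. The first SPRED2 window held no match, and whether the second start is used in these cells was not tested. The windows of DUSP6 and SPRY4 held none of the motifs searched. A relation between motifs and fold changes was not tested. A match is a description of the letters in the window only.

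DUSP6 encodes a cytoplasmic phosphatase selective for ERK. Its level was 70.54, 70.88 and 68.91 CPM in shCK5 libraries 1, 2 and 3, against 6.832, 7.61 and 6.452 CPM in shControl libraries 1, 2 and 3. The groups were far apart, and DUSP6 was 10.1-fold higher in shCK5 (log2 fold change 3.33, SE 0.0507; edgeR adjusted p = 2.13e-26). Of all genes tested, 5.03% had a higher log2 fold change. The gene (ENSG00000139318.7, chromosome 12, 89347232 to 89353271, minus strand, GRCh38) shares 1875 of its 4632 annotated exon bases (40.5%) with exons of an antisense gene. Reads there may not have been counted, so its level is less certain than those of the other members.

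DUSP7, a close relative of DUSP6 that also acts on ERK in the cytoplasm (chromosome 3, 52048919 to 52056550, minus strand), had 108.8, 112.4 and 103.7 CPM in shCK5, against 21.29, 23.09 and 21.82 CPM in shControl. It was 4.91-fold higher (log2 fold change 2.29, SE 0.0399; edgeR adjusted p = 3.17e-25). Within each library the ratio of DUSP6 to DUSP7 counts does not depend on scaling. It was 0.648, 0.631 and 0.664 in shCK5 and 0.321, 0.33 and 0.296 in shControl.

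The genes of the nuclear phosphatases DUSP4 and DUSP5 were higher as well. DUSP2, a nuclear phosphatase gene outside the listed members, was lower (log2 fold change -3.25, SE 0.178). DUSP4, which acts on ERK and on the stress kinases JNK and p38, is on chromosome 8 (29333064 to 29350668, minus strand). It had 382.2, 368.1 and 367.1 CPM in shCK5, against 47.72, 50.15 and 50.53 CPM in shControl. The lowest shCK5 library was several times the highest shControl library, and the mean was 7.53-fold higher (log2 fold change 2.91, SE 0.0312; edgeR adjusted p = 1.93e-29). DUSP5, a nuclear phosphatase selective for ERK (chromosome 10, 110497838 to 110511544, plus strand), had 100.8, 103.3 and 105.8 CPM in shCK5, against 27.54, 28.93 and 28.93 CPM in shControl. Its mean was 3.63-fold higher (log2 fold change 1.86, SE 0.0356; edgeR adjusted p = 2.41e-24). The ratio of DUSP4 to DUSP5 counts was 3.79, 3.56 and 3.47 in shCK5 and 1.73, 1.73 and 1.75 in shControl.

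DUSP1, the immediate early phosphatase of p38, JNK and ERK, was listed at 0 counts in all 6 libraries and was not tested. All 2019 of its annotated exon bases (chromosome 5, 172768090 to 172771195, minus strand, GRCh38) lie inside the span of another annotated gene. Among protein-coding genes in this position, 1530 of 1694 (90.3%) were listed at 0 in every library, against 921 of 9247 (9.96%) of those with no exon base inside another gene. FOSB, JUNB and DUSP18 were in the same position and were also at 0. No level of DUSP1 was read from these counts.

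The 3 sprouty genes among the listed members were all higher in shCK5. SPRY3, a sprouty gene outside the listed members, was lower (log2 fold change -4.62, SE 0.111). SPRY4 (chromosome 5, 142310427 to 142326455, minus strand) had 191.3, 195.7 and 189.5 CPM in shCK5, against 30.87, 27.53 and 30.94 CPM in shControl. It was 6.45-fold higher (log2 fold change 2.69, SE 0.0378; edgeR adjusted p = 4.07e-27). SPRY2, whose product binds the adaptor GRB2 and the ubiquitin ligase CBL (chromosome 13, 80335976 to 80340951, minus strand), had 56.38, 51.38 and 54.07 CPM in shCK5, against 29.48, 30.89 and 29.96 CPM in shControl. The groups did not overlap, but the difference was 1.79-fold (log2 fold change 0.84, SE 0.0412; edgeR adjusted p = 9.58e-16), and 23.1% of all genes tested had a higher log2 fold change.

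SPRY1 (chromosome 4, 123396795 to 123403760, plus strand) had 17.71, 17.65 and 17.31 CPM in shCK5, against 7.49, 8.074 and 8.194 CPM in shControl. It was 2.22-fold higher (log2 fold change 1.15, SE 0.0635; edgeR adjusted p = 1.18e-14). The ratio of SPRY2 to SPRY4 counts was 0.295, 0.262 and 0.285 in shCK5, against 0.955, 1.12 and 0.968 in shControl, where the counts were nearly equal.

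Both SPRED genes among the listed members were higher in shCK5, SPRED2 by little. SPRED1 (chromosome 15, 38252326 to 38357249, plus strand) had 77.76, 77.55 and 79.76 CPM in shCK5, against 24.83, 25.84 and 25.67 CPM in shControl, a 3.08-fold rise (log2 fold change 1.62, SE 0.0365; edgeR adjusted p = 7.06e-23). SPRED2 (chromosome 2, 65310851 to 65432637, minus strand) had 86.92, 86.33 and 84.42 CPM in shCK5, against 79.45, 77.9 and 77.42 CPM in shControl. These groups lie close together without overlap. SPRED2 was 1.1-fold higher (log2 fold change 0.13, SE 0.0305; edgeR adjusted p = 0.000289), and 44.5% of all genes tested had a higher log2 fold change. Scaled by library size alone, SPRED2 stood at -0.0023 on the log2 scale (edgeR adjusted p = 0.946), and the median of all genes moved to -0.156. The distance of SPRED2 from that median was 0.154 under both scalings. A change of scaling shifts all genes almost alike, so this distance cannot show whether SPRED2 rose. Over the other 10 alternatives of the fit its adjusted p by edgeR or DESeq2 was 2.54e-05 to 0.00278. The ratio of SPRED1 to SPRED2 counts, which needs no scaling, was 0.895, 0.898 and 0.945 in shCK5 and 0.313, 0.332 and 0.332 in shControl.

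Such ratios were compared for all 10 pairs of tested members within a family. The 3 shCK5 and 3 shControl values were separated in all 10 pairs, at an exact two-sided permutation p of 0.1 each (0.1 adjusted over the pairs), the smallest that 3 against 3 libraries allow, so no pair could pass 0.05. The share of separated ratios among other gene pairs was not computed, and with 82.7% of all tested genes differing between the groups the count is given as a description only. The mean log2 ratio differed most for SPRY2 over SPRY4 (-1.85, shCK5 minus shControl), SPRY1 over SPRY4 (-1.54), SPRED1 over SPRED2 (1.49) and DUSP5 over DUSP6 (-1.48). It differed least for SPRY1 over SPRY2 (0.31).

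**Figure D3:**
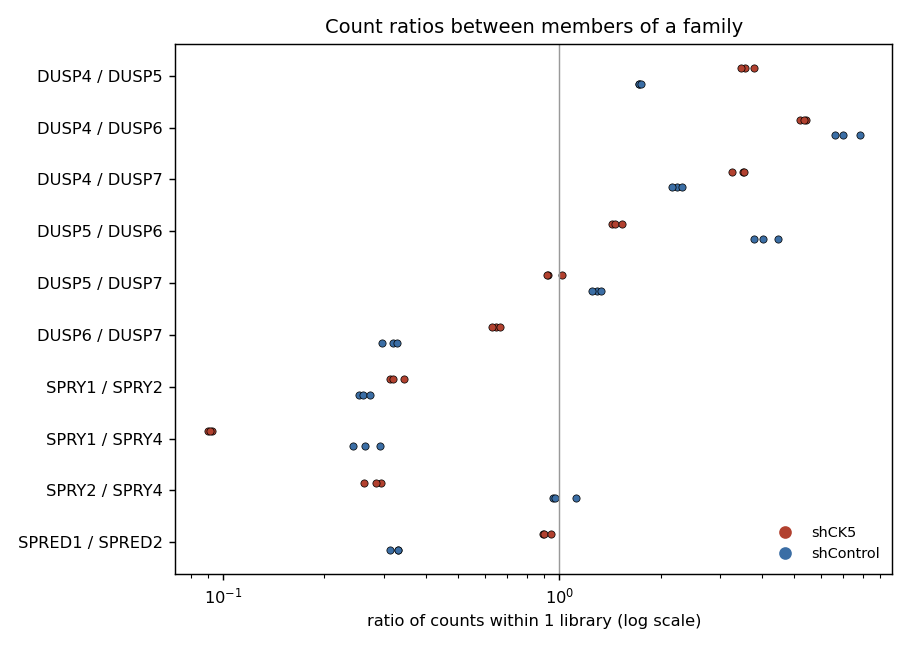
Ratio of the counts of 2 members of a family within each library (log axis), for 10 pairs; red points above are the 3 shCK5 libraries and blue points below the 3 shControl libraries, and the vertical line marks equal counts. SPRY2 over SPRY4 lies at 0.262 to 0.295 in shCK5 and near 1 in shControl.

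To compare levels between genes, CPM was divided by the kilobases of annotated exon. Summed over the 9 genes, this level was 201 to 204 CPM per kilobase in shCK5 and 57.1 to 58.3 in shControl, a ratio of 3.51. In shCK5 the order by mean level per kilobase was DUSP4 (51.3 ± 1.17), DUSP5 (39.5 ± 0.95), SPRY4 (29.3 ± 0.487), DUSP7 (19.2 ± 0.773), SPRY2 (17.8 ± 0.824), SPRED2 (16.7 ± 0.253), DUSP6 (15.1 ± 0.228), SPRED1 (9.49 ± 0.148) and SPRY1 (4.43 ± 0.0547; CPM per kilobase, SD, n = 3). Only DUSP7 and SPRY2 overlapped among neighbours in this order. In shControl it was SPRED2 (15.2 ± 0.205), DUSP5 (10.9 ± 0.307), SPRY2 (9.91 ± 0.237), DUSP4 (6.82 ± 0.21), SPRY4 (4.54 ± 0.297), DUSP7 (3.91 ± 0.164), SPRED1 (3.08 ± 0.0652), SPRY1 (2 ± 0.095) and DUSP6 (1.5 ± 0.127), with no overlap between neighbours.

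DUSP4 made up 25.3% ± 0.425 of the summed level per kilobase in shCK5 and 11.8% ± 0.241 in shControl, and SPRY4 made up 14.4% ± 0.233 in shCK5 and 7.85% ± 0.576 in shControl. SPRED2 made up 8.22% ± 0.0727 in shCK5 and 26.3% ± 0.647 in shControl (SD, n = 3 each). Of the level summed over SPRY1, SPRY2 and SPRY4, SPRY4 held 56.9% ± 1.23 in shCK5 and 27.6% ± 1.76 in shControl. SPRY2 held 34.5% ± 1.31 in shCK5 and 60.3% ± 1.51 in shControl. SPRY3, with 0.6158 CPM in shCK5 and 15.13 CPM in shControl, was not part of this sum. With the exon bases inside other genes left out of the length, an alternative chosen after seeing the data, DUSP6 stood at 25.4 CPM per kilobase in shCK5 and 2.53 in shControl, above DUSP7 in shCK5 but below it in shControl.

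**Figure D4:**
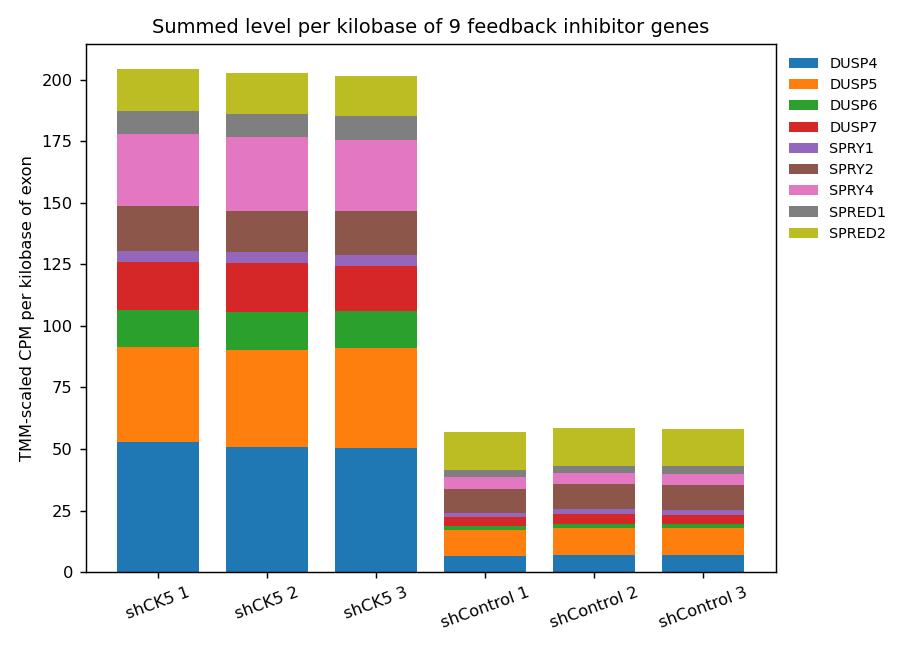
TMM-scaled CPM per kilobase of annotated exon, stacked over 9 feedback inhibitor genes, in each of 3 shCK5 libraries (left) and 3 shControl libraries (right). Stacks reach 201 to 204 in shCK5 and 57.1 to 58.3 in shControl; the SPRED2 segment is of similar height in all 6 and the DUSP4 segment is not.

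Replicates were close. The coefficient of variation of the tested members was 1.23% to 4.64% in shCK5 and 1.35% to 8.47% in shControl, the highest being that of DUSP6 in shControl. By centred log2 CPM over the 6 libraries, the nearest of 9571 other genes with a mean of at least 10 CPM to DUSP6 were ECM1, LHFP, PHLDA1, CDK6 and LIMK1, at Euclidean distances of 0.0577 to 0.126. Their log2 fold changes were 3.24 to 3.46, and likeness over these libraries is mostly likeness in the difference between the groups.

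The other genes of the pathway were read in 10 lists, each of which held genes that differed in both directions. Over all genes tested, 82.7% passed in either direction and 40.9% passed as higher in shCK5. Upstream, 4 of 11 tested receptor genes rose and 6 fell (median log2 fold change -0.50). EGFR fell to 734.6 ± 12.1 CPM in shCK5, against 2895 ± 44.3 CPM in shControl (SD, n = 3 each), and FGFR2 fell by 4.40 on the log2 scale (SE 0.0878). PDGFRB rose by 3.19 (SE 0.188), to 4.36 ± 0.301 CPM in shCK5 against 0.4763 ± 0.184 CPM in shControl. It is also in the list of fibroblast markers. The other receptor genes that rose were ERBB2, FGFR1 and MET, by 0.38, 1.57 and 0.64 on the log2 scale. FGFR1 had 186 ± 5.87 CPM in shCK5 and 62.55 ± 0.601 CPM in shControl. Of 10 tested ERBB and FGF ligand genes, 5 rose and 4 fell (median 0.60). The ligand gene NRG1 had 84.9 ± 2.8 CPM in shCK5 and 0.2771 ± 0.0452 CPM in shControl, and HBEGF, which encodes an EGFR ligand, had 127.7 ± 1.65 CPM in shCK5 and 11.17 ± 0.457 CPM in shControl. FGF2 fell by 3.00 on the log2 scale (SE 0.18). EGF, BTC and FGF1 also fell, by 1.59, 1.75 and 1.64 on the log2 scale, so the ligand genes differed in both directions.

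The cascade itself held differences in both directions. Of 14 adaptor and RAS genes, 8 rose and 6 fell (median log2 fold change 0.33). The adaptor gene SHC1 rose by 1.37 (SE 0.0347), and MRAS, a RAS relative, fell by 2.99 (SE 0.0518). PTPN11, which encodes the phosphatase SHP2, had 301.2 ± 4.72 CPM in shCK5 and 204.6 ± 2.71 CPM in shControl. Of 12 RAF, MEK and ERK kinases, ERK-activated RSK kinases and scaffolds, 8 rose and 2 fell (median 0.42). The 2 that fell were MAPK3, which encodes ERK1 (42.68 ± 0.718 CPM in shCK5, 55.53 ± 2.64 CPM in shControl), and the RSK kinase gene RPS6KA1 (log2 fold change -1.14, SE 0.0335); RPS6KA3 rose by 1.56 (SE 0.0374). IQGAP1, a scaffold, had 565 ± 3.22 CPM in shCK5 and 314.1 ± 3.74 CPM in shControl.

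In a short list of other genes known as ERK outputs, 5 of 6 tested rose and 1 fell (median log2 fold change 2.40). Of all genes tested, 40.9% were higher, and the difference of this list from that share was not tested. PHLDA1 had 143.2 ± 2.07 CPM in shCK5 and 14.33 ± 0.857 CPM in shControl, and CCND1, which encodes cyclin D1, had 790.1 ± 12.7 CPM in shCK5 and 231.8 ± 8.73 CPM in shControl. ETV1, EPHA2 and ETV5, the other risers, had log2 fold changes of 3.20, 2.51 and 2.30, while EPHA4 fell by 1.08 (SE 0.0557). Of 7 genes for ETS factors, SRF and the repressor CIC, 5 rose and 1 fell (median 1.20). ELK3 rose by 3.03 (SE 0.0397) and ETS1 by 1.20 (SE 0.0276), and CIC, which represses ETV genes when ERK is inactive, fell by 0.19 (SE 0.031). Immediate early genes, read as a separate list, were divided, with 5 of 11 tested genes higher and 5 lower (median -0.14). The riser EGR2 had low counts, at 0.3052 CPM in shCK5 and 0.1333 CPM in shControl (edgeR adjusted p = 0.0184). With DESeq2, and in some fits that left out a library, 4 genes of this list were higher. FOSL1, an AP-1 subunit, had 758.8 ± 29.7 CPM in shCK5 and 29.27 ± 2.33 CPM in shControl. ATF3 fell by 1.28 (SE 0.0603), and EGR1, IER2, IER3 and ZFP36 were the others that fell.

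Negative regulators outside the 10 genes are read against the 40.9% of all tested genes that were higher in shCK5, and their difference from the 10 genes was not tested. Of 11 other tested DUSP genes, 5 rose and 5 fell (median log2 fold change -0.00). DUSP10, a phosphatase of JNK and p38, had 35.36 ± 1.38 CPM in shCK5 and 8.41 ± 0.261 CPM in shControl. DUSP2, a nuclear phosphatase of ERK and p38 best known from immune cells, had 0.4186 ± 0.0958 CPM in shCK5 and 4.004 ± 0.171 CPM in shControl; DUSP8, DUSP16, DUSP22 and DUSP23 were the other DUSP genes that fell. DUSP3 had 104.8 ± 0.721 CPM in shCK5 and 53.22 ± 1.11 CPM in shControl.

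Among 12 other negative regulators of RAS and ERK, 6 rose and 5 fell (median log2 fold change 0.09). The remaining relatives of the sprouty and SPRED genes went opposite ways. SPRED3 rose by 2.25 (SE 0.0902), whereas SPRY3 had 0.6158 ± 0.056 CPM in shCK5 and 15.13 ± 1.02 CPM in shControl (log2 fold change -4.62, SE 0.111). ERRFI1, an inhibitor of EGFR, had 333.2 ± 7.81 CPM in shCK5 and 108.9 ± 2.59 CPM in shControl. In a list of 8 binding partners and regulators of sprouty and SPRED proteins, 3 rose and 4 fell (median -0.17). NF1, which encodes the neurofibromin that SPRED proteins recruit, had 54.3 ± 0.301 CPM in shCK5 and 136.5 ± 2.35 CPM in shControl, and CAV1, which encodes caveolin 1, had 868.8 ± 5.84 CPM in shCK5 and 177.1 ± 13.9 CPM in shControl. SPRED1 and NF1 thus differed in opposite directions. Apart from EGR2 (0.0184), the highest edgeR adjusted p among the non-member genes of the pathway said to rise or fall by name was 0.000239, for DUSP22.

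**Figure D5:**
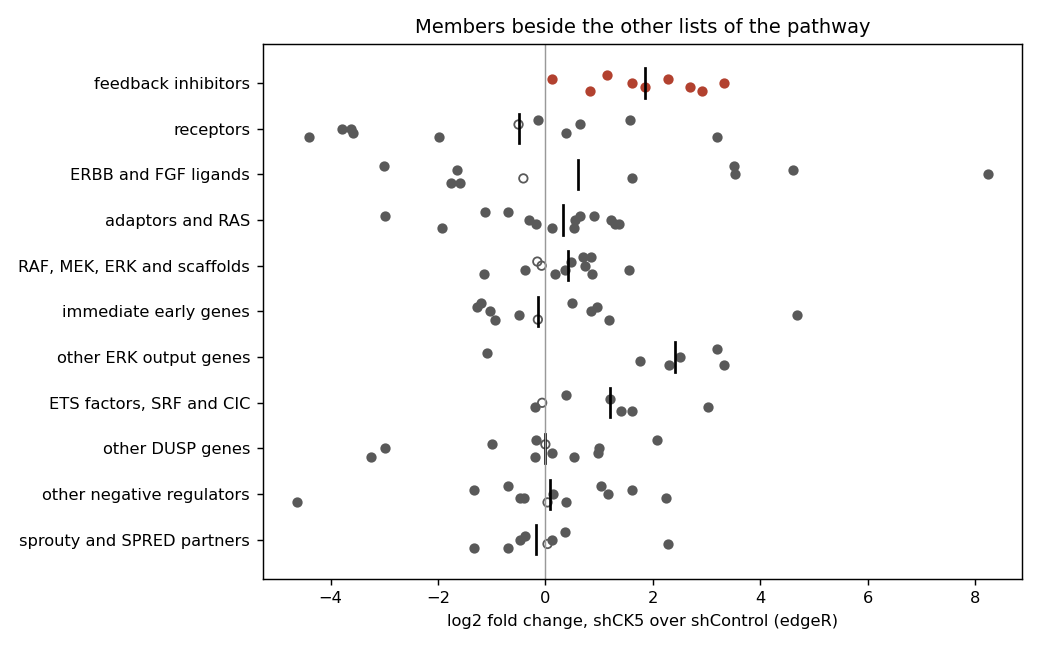
Log2 fold change, shCK5 over shControl, of the 9 feedback inhibitors (red) and of the tested genes of 10 pathway lists (grey); filled points passed an adjusted p of 0.05 in edgeR, open points did not, and black bars are medians. The red points all lie above 0, whereas 10 of 10 other lists hold points on both sides of it.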

How the data were processed

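The authors deposited 1 table of raw read counts per gene name for 6 RNA libraries. Per the submitters' processing notes, the tools included STAR, cutadapt, Cufflinks and SAMtools (no versions listed) with GRCh38. The counting step, its annotation and its strand setting were not given in the sources used here. Between 63.1% and 65% of counts above 20 were even, a sign that mates of a pair may have been counted singly. Columns were assigned to samples by name.

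Counts were fitted in R 4.3.3 with edgeR 4.0.16 (filterByExpr, 19567 genes kept; TMM; glmQLFit and glmQLFTest without covariates) and adjusted by Benjamini-Hochberg over all genes tested; the standard error is the log2 fold change divided by the root of the F statistic. Some of the listed genes are not reported here by name. The script was tested on simulated data. DESeq2 1.42.0 and 10 other changes to the fit were alternatives. Gene positions and exon lengths came from GENCODE 29 (GRCh38), which may differ from the annotation the authors used, and promoter windows from RefSeq. Members and pathway lists were chosen with earlier results of these data known, so no list was tested as a set. From each list, the largest riser and faller with a mean of at least 1 CPM in 1 group and the gene with the highest mean are named; MAPK3 and other genes named beside them were chosen after their values were seen.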

Additional observations from a re-analysis of the deposited data

How the results depend on the processing

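Over 11 alternative fits (library size alone, RLE factors, no filter, DESeq2, the replicate block and leaving out each of 6 libraries), 98 of 99 log2 fold changes of the 9 tested members kept their direction and side of the threshold. The exception was SPRED2 scaled by library size alone, at -0.0023, which left 8 members higher; 7 members were more than 2-fold higher in every fit. Library size alone gave the lowest value for each member. DUSP6 ranged from 3.19 to 3.40 and DUSP4 from 2.78 to 2.94. All 352 values of the 32 other genes named by rule or as checks also kept direction and call. Library size alone also moved calls in the pathway lists: GRB2, DUSP12 and IL17RD were among those no longer higher, and KSR1, LAMTOR3, ELK4 and CBL became lower. Replicate numbers share no stated culture or day. Deviations from the group mean correlated across genes at -0.00504 to -0.00475 between same-numbered libraries and at -0.0177 to 0.0222 between differently numbered ones. All tested genes entered, including those with low counts, so a shared culture or day might not show in these values. With the replicate block 7918 genes were higher and 8008 lower, against 8012 and 8165, and the block changed no call of a member. In the order per kilobase, 7 of 9 places in each group were as reported with the longest transcript as length; without bases inside other genes, 5 places in shCK5 and 7 in shControl were. Depth limits the members little, the lowest count being 463 (DUSP6, shControl), whereas DUSP1 has no usable value.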
